A study of Mus musculus with 4 samples.

Results

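The Hox cluster genes were taken as every non-control probe whose gene name on the array reads Hoxa, Hoxb, Hoxc or Hoxd followed by digits alone. That rule gave 49 of 41174 probes and 38 of 27702 gene names. RefSeq's table holds 39 Hox genes, and 11 of those on the array were carried by 2 probes each. By cluster there were 14 probes of Hox A (11 genes), 14 of Hox B (10 genes), 9 of Hox C (8 genes) and 12 of Hox D (9 genes). An accession in the RefSeq table was found for 44 of the 49 probes, and all 44 carried the same gene name there. Expression was measured in neurospheres, floating cultures of mouse neural stem cells kept with EGF and without serum, from 129/Sv by C57BL/6 crosses. The mutants were neurospheres of the lines Dll1-3 and Dll1-5, both mutant in Dll1, which encodes a Notch ligand, and the controls were wild-type neurospheres. On each of 4 arrays, of 2 colours, RNA of a mutant line was hybridised together with wild-type RNA, and replicate 2 of a line had the dyes of replicate 1 exchanged. The design text speaks of 2 biological replicates, each a pool of 3 and each dye-swapped. With 4 arrays this was read as 1 pooled sample per line, hybridised in both dye orientations, though whether the arrays of a line held separate pools is not settled, and results with each array as a sample are given too. The labels state neither the mutant alleles, nor the age of the mice, nor the brain region cultured, nor whether a line is 1 clone.

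Hox genes encode homeodomain transcription factors that give cells their position along the body from hindbrain to tail. They lie in 4 clusters, and members with the same number in different clusters, the paralogues, descend from one ancestral gene. Low numbers are expressed from the hindbrain backwards and high numbers only further towards the tail, in the order in which the genes lie on the chromosome. In nervous tissue, forebrain and midbrain are the regions that normally keep the clusters silent, under Polycomb repression, while retinoic acid, Wnt and FGF signals and Cdx factors open them in the caudal neural tube.

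Values below are either ratios, on each array the log2 of mutant against wild-type signal, or levels, the normalised log2 intensity of a single channel. In each channel 80% to 82.1% of probes were well above background, the scanner software's test of a spot against its surroundings. As a check of the labels, Dll1 was at -3.31 and -3.22 on the Dll1-3 arrays and at -1.65 and -1.64 on the Dll1-5 arrays, lower in mutant RNA on every array. To be tested, a probe had to be well above background with the same RNA, mutant or wild type, on the paired arrays of at least 1 line. This left 35 Hox probes of 31 genes, 12 in Hox A, 11 in Hox B, 6 in Hox C and 6 in Hox D, and set aside 14. No Hox spot was saturated and none was marked as an outlier.

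Fewer Hox probes were detected at high paralogue numbers than at low ones. Of the 49 probes, 22 (44.9%) were well above background in all 8 channels, where 69.2% of all probes were. Against a stricter bar, the 99th percentile of 314 negative control spots in each channel, 11 Hox probes (22.4%) lay above in all 8 channels, where 45.1% of all probes did, and 25 lay above in none. Those 11 were 7 probes of Hox A, 2 of Hox B, 2 of Hox C and 0 of Hox D. By paralogue number they were 7 of 16 probes for paralogues 1 to 4, 4 of 13 for paralogues 5 to 8 and 0 of 20 for paralogues 9 to 13. Among their genes were Hoxa2, Hoxa3 (both probes), Hoxa4, Hoxa5, Hoxa6, Hoxb3, Hoxb6, Hoxc4 and Hoxc5. In Hox D the probe nearest to this was that of Hoxd12, above the negative controls in 7 channels.

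**Figure D1:**
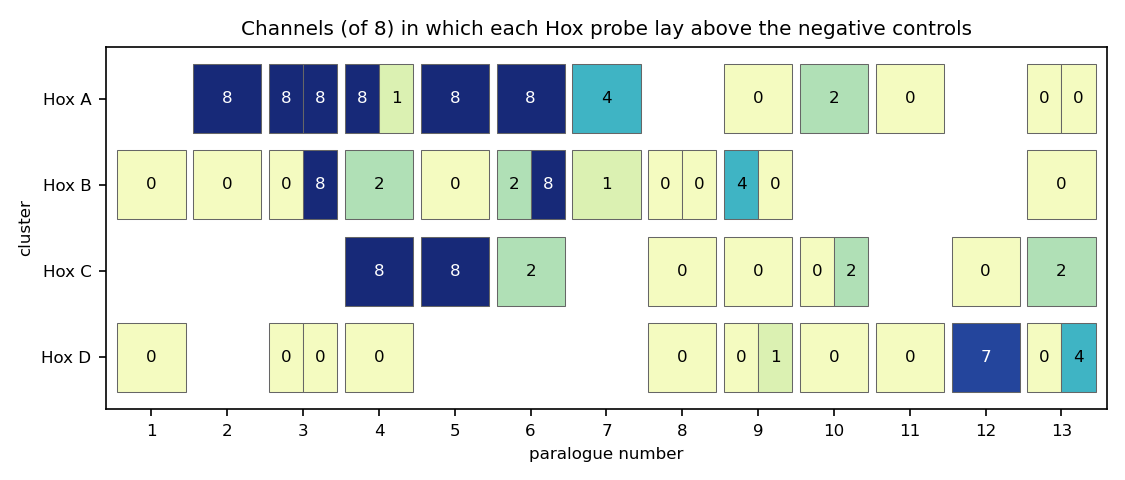
Number of channels, of 8, in which 48 of the Hox probes lay above the 99th percentile of the negative control spots of that channel, by cluster (rows) and paralogue number (columns). Split boxes are genes with 2 probes, and an empty place has no probe shown. The probes shown at 8 channels belong to Hox A, B and C and to paralogue numbers up to 6.

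Hoxa7, a Hox A gene whose expression begins in the spinal cord, had the largest ratio of the Hox probes. Its ratio was 3.58 and 3.34 on the Dll1-3 arrays, a mean of 3.46 and 11-fold, and -0.17 and 0.14 on the Dll1-5 arrays. That mean ranked 13th highest of 34329 probes in Dll1-3, where the highest was 4.21. The probe lies on chromosome 6 from 52359238 to 52359297 on the minus strand, in the coordinates of the array design, for which no genome build is named. In levels, Dll1-3 mutant RNA was at 11.88 and 11.97 and the wild-type RNA of the same arrays at 8.30 and 8.63. Dll1-5 mutant RNA was at 6.11 and 6.26 and the wild-type RNA of those arrays at 6.28 and 6.13. Dll1-3 mutant RNA therefore stood above every other channel, the wild-type RNA on its arrays came next, and the 4 channels of the Dll1-5 arrays overlapped. Hoxa7 was not well above background in Dll1-5 mutant RNA, and it was so in 1 of the 2 wild-type channels of those arrays, so the Dll1-5 ratio says little about Hoxa7 RNA. As observed, the Dll1-3 mutant signal was 53.3-fold above the Dll1-5 mutant signal and 52.7-fold above the wild-type signal of the Dll1-5 arrays. These folds set the bright mean against the higher of the dim signal and the lowest signal well above background on each array, from channels scaled with Aquantile, and they are open to dye bias only as far as the swap does not balance it. The dim signal lay below the 99th percentile of negative controls, which was 6.67 and 6.87 in the Dll1-5 mutant channels. The folds are therefore not lower bounds for Hoxa7 RNA. In pooled RNA of a culture, more cells with a transcript and more transcript per cell cannot be told apart.

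Hoxa10, a gene of the posterior end of the cluster, known from the lumbar cord, the uterus and blood progenitors, behaved alike on these arrays. Its ratio was 2.48 and 2.74 in Dll1-3 (mean 2.61, 6.11-fold, 63rd highest of 34329) and -0.03 and -0.09 in Dll1-5. Dll1-3 mutant RNA was at levels of 9.19 and 9.03, and its wild-type counterpart at 6.71 and 6.29. On the Dll1-5 arrays mutant RNA was at 6.05 and 5.91 and wild-type RNA at 6.08 and 6.01, none of them well above background, so that no ratio can be read there. Only the Dll1-3 mutant channels were above the negative controls. Reckoned as for Hoxa7, the Dll1-3 mutant signal was 8.74-fold above the Dll1-5 mutant signal and 8.38-fold above the wild-type signal of the Dll1-5 arrays. Both folds are against background signal and are not lower bounds. The size of the Dll1-3 ratio of Hoxa10 depended on how dim wild-type signal was treated, from 2.38 without background correction to 4.37 in the deposited value table, while that of Hoxa7 ran from 3.39 to 3.78.

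Upstream sequences are shown for the stretch of the Hox A cluster from Hoxa5 to Hoxa10. It holds the genes with the largest ratios, Hoxa7 and Hoxa10, and Hoxa6, whose ratios were small. Hoxa9, which lies between Hoxa7 and Hoxa10, was above the negative controls in no channel, so its small ratio cannot be read. Each window holds the 250 bases before a RefSeq transcription start (GRCm38.p6, chromosome 6, minus strand), written 5′ to 3′ along the gene. In the windows of Hoxa6 and Hoxa9 capitals mark TGGGAA, or its reverse complement, the core read by RBPJ, the DNA-binding partner of Notch. In the proximal window of Hoxa10, one of its 2 starts in the table, they mark the reverse complement of TATAAA, the letters of the TATA box. The match is on the opposite strand and was not shown to act as that core promoter element. These coordinates are of another build than those of the probes.
Hoxa5 upstream window, chr6:52204588-52204837: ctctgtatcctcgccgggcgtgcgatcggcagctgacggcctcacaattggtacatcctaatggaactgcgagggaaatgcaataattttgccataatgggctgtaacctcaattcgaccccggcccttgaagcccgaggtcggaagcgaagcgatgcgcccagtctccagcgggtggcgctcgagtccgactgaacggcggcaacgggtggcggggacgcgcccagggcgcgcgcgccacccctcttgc
Hoxa6 upstream window, chr6:52208673-52208922: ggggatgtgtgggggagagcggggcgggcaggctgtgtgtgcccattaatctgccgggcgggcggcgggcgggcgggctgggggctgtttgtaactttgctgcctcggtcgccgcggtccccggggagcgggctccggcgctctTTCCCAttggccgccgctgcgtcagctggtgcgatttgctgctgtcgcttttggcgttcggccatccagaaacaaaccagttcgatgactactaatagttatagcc
Hoxa7 upstream window, chr6:52218574-52218823: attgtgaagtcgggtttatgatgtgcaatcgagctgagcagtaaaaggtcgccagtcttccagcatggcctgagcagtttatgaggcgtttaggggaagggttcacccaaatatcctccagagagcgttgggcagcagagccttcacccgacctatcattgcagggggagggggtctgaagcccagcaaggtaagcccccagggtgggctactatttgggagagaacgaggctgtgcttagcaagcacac
Hoxa9 upstream window, chr6:52227371-52227620: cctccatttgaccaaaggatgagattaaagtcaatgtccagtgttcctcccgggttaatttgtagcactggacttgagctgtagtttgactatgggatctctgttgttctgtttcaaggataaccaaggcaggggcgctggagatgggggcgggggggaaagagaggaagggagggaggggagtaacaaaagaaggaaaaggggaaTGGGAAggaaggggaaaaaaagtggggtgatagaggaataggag
Hoxa10 distal upstream window, chr6:52240855-52241104: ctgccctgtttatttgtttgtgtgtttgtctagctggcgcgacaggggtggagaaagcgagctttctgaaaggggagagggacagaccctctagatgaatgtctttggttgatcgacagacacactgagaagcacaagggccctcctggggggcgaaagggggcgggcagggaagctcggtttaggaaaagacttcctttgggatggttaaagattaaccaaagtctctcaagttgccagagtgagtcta
Hoxa10 proximal upstream window, chr6:52234940-52235189: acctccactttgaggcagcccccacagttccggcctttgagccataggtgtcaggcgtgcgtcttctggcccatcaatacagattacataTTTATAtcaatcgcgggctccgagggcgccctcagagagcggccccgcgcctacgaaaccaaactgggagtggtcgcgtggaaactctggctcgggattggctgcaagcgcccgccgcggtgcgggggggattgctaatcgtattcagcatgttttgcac
The RBPJ core, on either strand, was found in the windows of Hoxa6 and Hoxa9 and in none of Hoxa5, Hoxa7 and Hoxa10. Of 32851 windows of the same length, 21.6% hold it. TATAAA is held by 12.4% of all windows. Also searched on both strands, and absent from these 6 windows, were TGACAG, a core read by MEIS factors (15.9% of all windows), TGATTNAT, read by PBX-HOX pairs (2.8%), TAATTA, a homeodomain core (4.8%), and AGGTCA, a half-site of retinoic acid receptors (14%). None of the 6 windows held more than 1 match. CG pairs were 28 in the Hoxa5 window, 24 in Hoxa6, 7 in Hoxa7, 3 in Hoxa9, and 7 and 20 in the distal and proximal windows of Hoxa10, beside a median of 6 over all windows and 12.5 over the 24 Hox windows. A match of letters is a description of the sequence, and these windows were not assayed here.

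Between Hoxa7 and Hoxa10 on the chromosome lies Hoxa9, a posterior gene known from spinal cord and leukaemia, whose ratio was 0.16 and 0.18 in Dll1-3 and -0.04 and 0.20 in Dll1-5. Its levels ran from 6.15 to 6.40 over the 8 channels, none above the negative controls, so a change of a low transcript was not measurable with this probe. Hoxa6, on the other side of Hoxa7, was measured in all 8 channels and had ratios of 0.24 and 0.10 in Dll1-3 and 0.05 and -0.01 in Dll1-5. The Hoxa7 ratio in Dll1-3 was thus not shared by the adjacent genes on either side as far as their probes could show it. Besides the Hox probes, 5 other probes lie within the Hox A interval on the array, 2 within Hox B, 1 within Hox C and 2 within Hox D. Only 3 of those in Hox A and both in Hox D passed the background filter. None of the 10 was 2-fold on the arrays of either line, and their ratios on single arrays ran from -0.18 to 0.42. Of all probes that passed the filter, 9.18% in Dll1-3 and 5.59% in Dll1-5 were 2-fold. Those shares do not apply to the probes among the 10 that did not pass.

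**Figure D2:**
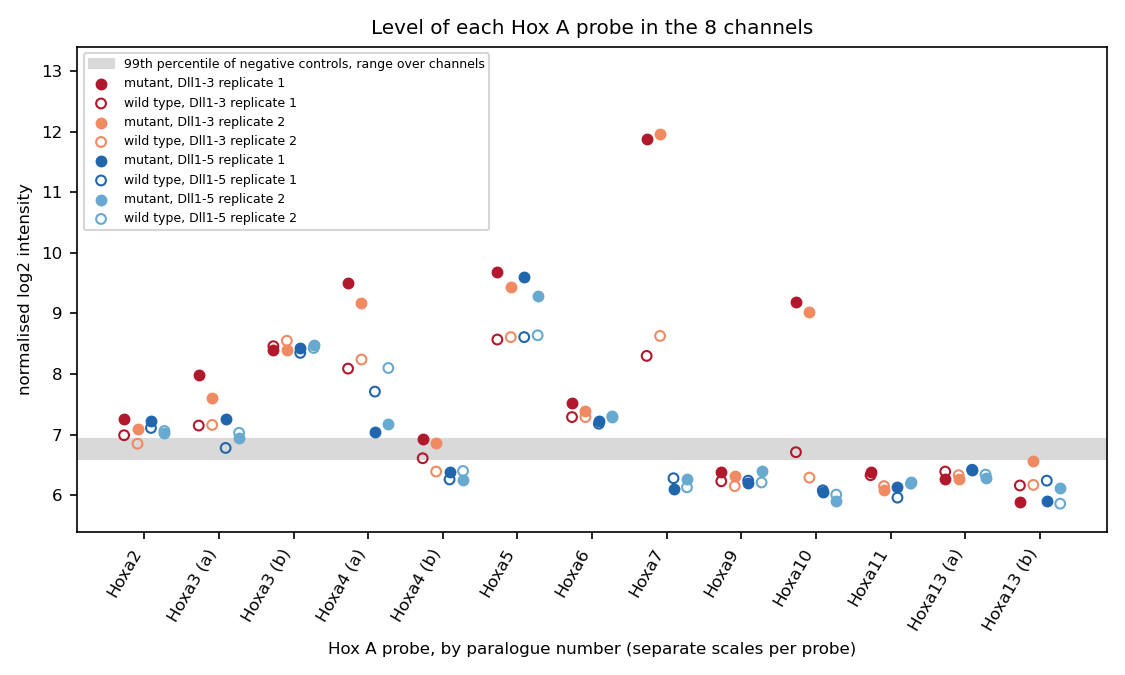
Normalised log2 intensity of 13 Hox A probes in the 8 channels (filled, mutant RNA; open, wild-type RNA; colours, the 4 arrays). The grey band spans the 99th percentile of negative control spots over the channels, 6.60 to 6.92. Letters a and b mark the probes of a gene in order of probe identifier, and heights are to be compared within a probe only. Dll1-3 mutant RNA stands apart for Hoxa7, Hoxa10 and the first Hoxa4 probe.

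Hoxa4, an anterior gene of hindbrain and cervical cord, differed in direction between the lines at one of its probes. That probe, A_52_P443588 on chromosome 6 from 52333505 to 52333564, was at 1.41 and 0.94 in Dll1-3 and at -0.66 and -0.92 in Dll1-5. Means were 1.17 (2.26-fold higher) and -0.79 (1.73-fold lower). Mutant levels were 9.51 and 9.18 in Dll1-3 and 7.05 and 7.18 in Dll1-5, and wild-type levels lay between them at 8.09, 8.24, 7.71 and 8.1. Mutant RNA of the lines thus lay on opposite sides of all 4 wild-type channels, which were well above background throughout. The other Hoxa4 probe, A_52_P638382, was at 0.32 and 0.46 in Dll1-3 and 0.13 and -0.15 in Dll1-5. Its levels, 6.25 to 6.93, were above the negative controls in 1 channel, and the sign of its Dll1-5 mean held in 4 of 7 other scalings. Its mutant levels were higher in Dll1-3 than in Dll1-5 by 0.54 in Cy5 and 0.61 in Cy3, the direction of the first probe. A decrease in Dll1-5 could hardly be read with a probe this dim, so the opposite sign rests on 1 probe.

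Hoxa5, a gene of the cervical cord, lung and somites, was the Hox gene with the smallest p over both lines. Its ratio was 1.12 and 0.82 in Dll1-3 and 0.98 and 0.65 in Dll1-5, above 0 on all 4 arrays. The mean over both lines was 0.89 (SD 0.11, n = 2 lines; limma adjusted p = 0.0767). Mutant levels of 9.69, 9.43, 9.60 and 9.29 all exceeded the wild-type levels of 8.57, 8.61, 8.61 and 8.64. Hoxa3, which patterns caudal hindbrain and pharyngeal arches, was at 0.84 and 0.44 in Dll1-3 and 0.47 and -0.08 in Dll1-5 by one probe, and at -0.07, -0.16, 0.08 and 0.05 by the other. The second Hoxa3 probe had 8 levels between 8.35 and 8.55, and the first, between 6.78 and 7.99, so the probes of Hoxa3 disagreed for Dll1-3. Hoxa2, a gene of hindbrain segments, was at 0.27, 0.25, 0.13 and -0.05.

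Over both lines, 0 of 35 Hox probes passed an adjusted p of 0.05 in limma, as did 0% of all 34444 probes tested, the smallest adjusted p being 0.0756. Before adjustment, 2 Hox probes had a p under 0.05, among them Hoxa5, or 5.71% beside 26.9% of all probes. None of the 35 was 2-fold the same way on all 4 arrays, where 3.66% of all probes were. Only 4 Hox probes, among them those of Hoxa5, Hoxb7 and Hoxd12, had a ratio above 0 on every array, where 23.9% of all probes did. Only 1, a Hoxa13 probe, was below 0 on every array, where 25.6% of all probes were. That Hoxa13 probe was above the negative controls in no channel and the Hoxb7 probe in 1, so their signs rest on signal near background.

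In Dll1-3 alone, 2 of 35 Hox probes were at least 2-fold on both arrays, Hoxa7 and Hoxa10, both higher, against 9.18% of all probes in either direction, 3.98% higher and 5.2% lower. Without Dll1-3 replicate 2 the count was 5, with Hoxa4 and Hoxa5 among those added, and with probes well above background in all 8 channels alone it was 0, since neither gene passes that filter. Shares of all probes were not counted for these other settings. A ratio above 0 on both Dll1-3 arrays was found for 21 Hox probes (60%), where 37.8% of all probes had one. Of those 21, 10 were among the 12 tested in Hox A. In Hox A the median in Dll1-3 was 0.52, with a range from -0.11 to 3.46. Medians were 0.06 in Hox B (-0.34 to 0.82), 0.05 in Hox C (-0.46 to 0.16) and 0.04 in Hox D (-0.17 to 0.22). Over all Hox probes tested the median was 0.08, and over all probes 0.01.

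In Dll1-5, 0 of 35 Hox probes were 2-fold on both arrays, where 5.59% of all probes were, 2.56% higher and 3.03% lower. Medians were 0.03 in Hox A (-0.79 to 0.82), -0.02 in Hox B (-0.46 to 0.10), -0.02 in Hox C (-0.11 to 0.14) and 0.01 in Hox D (-0.04 to 0.31). Over all 35 the median was 0.01, and over all probes 0.00. With the scanner software's ratio or the deposited value table, Hoxa4 made the Dll1-5 count 1, and the share of all probes was not counted there.

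**Figure D3:**
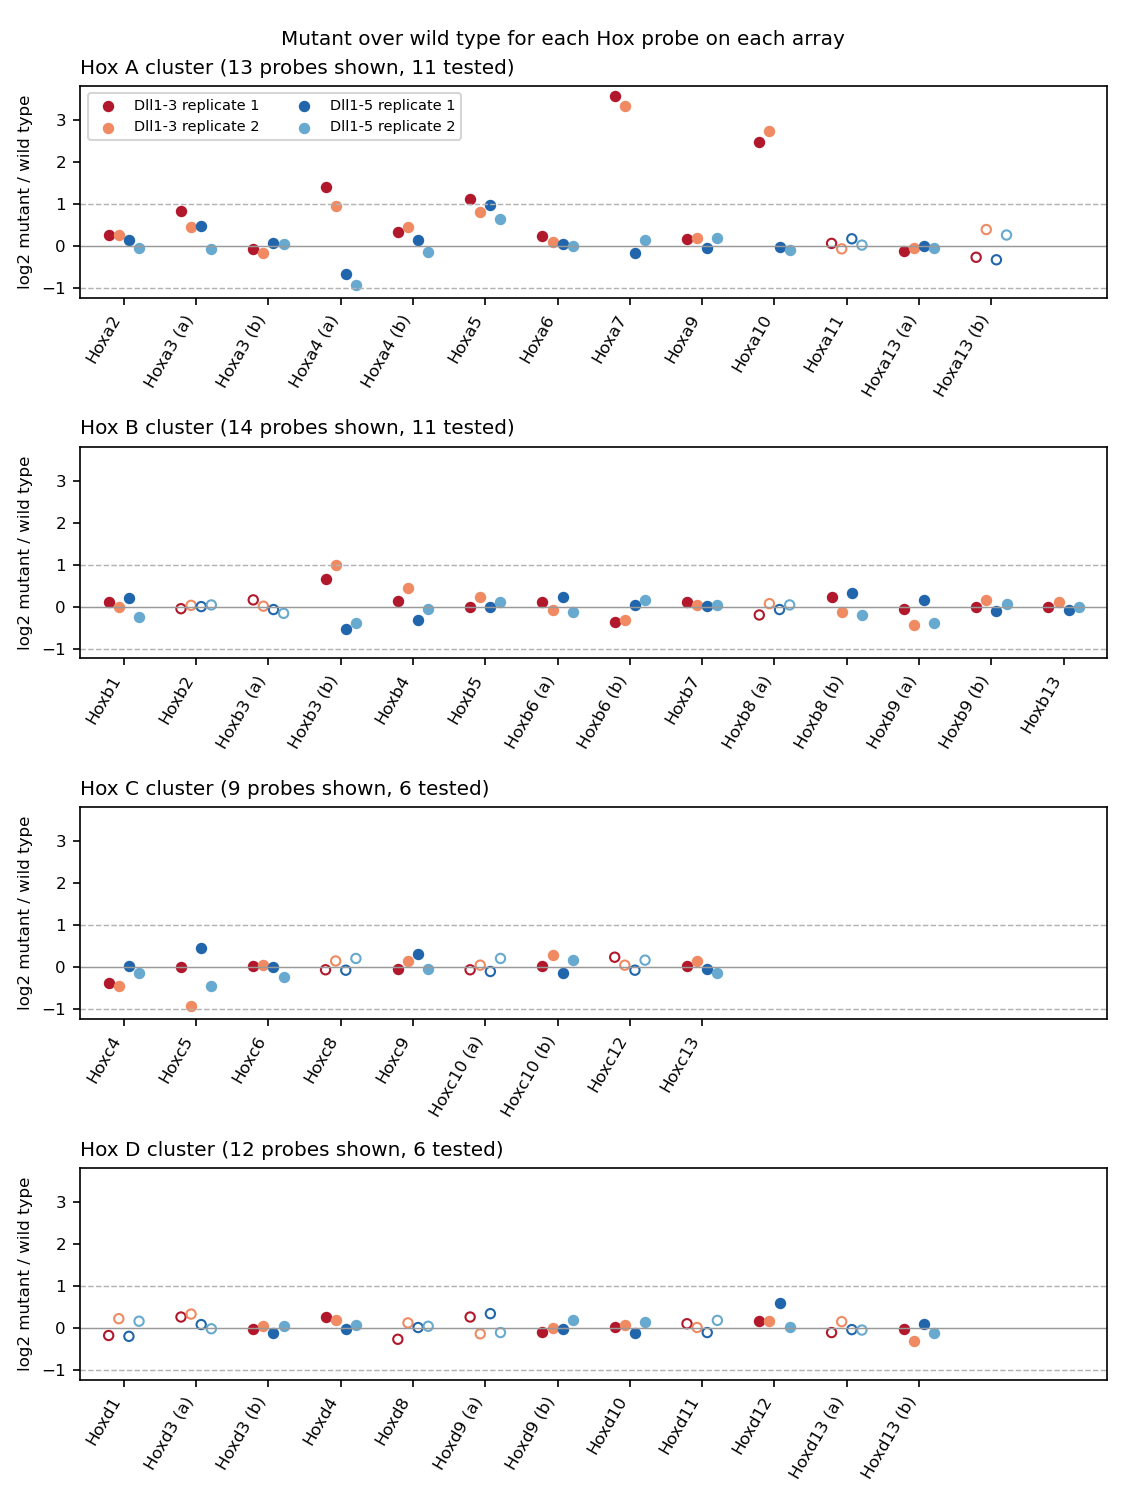
Log2 ratio of mutant over wild type of 48 Hox probes on each of the 4 arrays, by cluster and paralogue number. Filled points are probes tested (34 shown), open points the 14 left out, solid line 0 and dashed lines 2-fold. Hoxa7 and Hoxa10 stand beyond 2-fold on both Dll1-3 arrays and near 0 on both Dll1-5 arrays, where their signal was dim.

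Hox B, C and D held smaller ratios. Hoxb3, a gene of the caudal hindbrain, was at 0.65 and 0.98 in Dll1-3 and -0.53 and -0.39 in Dll1-5 by the probe A_51_P460643, on chromosome 11 from 96166888 to 96166947. Its mutant levels, 8.14 and 8.26 in Dll1-3 and 6.74 and 7.04 in Dll1-5, lay on either side of wild-type levels of 7.27 to 7.49, as those of the first Hoxa4 probe did. A second probe named Hoxb3 has the strand opposite to the other 13 Hox B probes and was well above background in no channel. Hoxb4, the neighbour of Hoxb3 on its posterior side, was at 0.13, 0.44, -0.33 and -0.05, with levels above the negative controls in 2 channels. Hoxb6, a thoracic gene, was at -0.37 and -0.31 in Dll1-3 and 0.04 and 0.16 in Dll1-5 by its brighter probe and at 0.10, -0.08, 0.22 and -0.12 by the other.

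Hoxc4, a cervical gene measured in all 8 channels, was at -0.37 and -0.44 in Dll1-3 and at 0.03 and -0.13 in Dll1-5. Its neighbour Hoxc5 was at 0.01 and -0.93 in Dll1-3 and 0.46 and -0.45 in Dll1-5, lower on replicate 2 in both lines, which is the exchanged dye orientation. The dye-swapped arrays of a line therefore disagreed more for Hoxc5 than the lines did. Hoxd12, a gene of limb and tail, was at 0.16, 0.17, 0.60 and 0.03, and Hoxb7, a trunk gene, at 0.12, 0.04, 0.01 and 0.03, of which the Dll1-5 sign held in 5 of 7 other scalings.

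Set against each other, the lines differed in 4 of 35 Hox probes by at least 2-fold with no overlap of their arrays, where 3.85% of all probes did. These were Hoxa4, Hoxa7, Hoxa10 and Hoxb3, all lower in Dll1-5 than in Dll1-3, a direction taken by 1.54% of all probes, where 2.32% took the other. The differences, Dll1-5 minus Dll1-3, were -1.97, -3.48, -2.67 and -1.28. Among probes well above background in all 8 channels 2 remained, those of Hoxa4 and Hoxb3, and the share of all such probes was not counted. Opposite signs on all 4 arrays were found for 7 Hox probes, where 10.1% of all probes had them. These were Hoxb3, Hoxb4, Hoxc13, one probe each of Hoxa3, Hoxa4 and Hoxb6, and Hoxa10. The sign of Hoxa10 in Dll1-5 comes from background signal and cannot be read. Hoxb4 and Hoxc13 were above the negative controls only on Dll1-3 replicate 1, so their Dll1-5 signs rest on signal near background. In a second fit each of the 4 arrays was a sample of its own, so that dye-swapped arrays of one line count as replicates. There limma put the difference between lines past an adjusted p of 0.05 for 5 of 35 Hox probes, beside 16.8% of all probes. Among the 5 were Hoxa7 and Hoxa10, whose Dll1-5 mutant RNA was not well above background on either array, so their p-values are not given. Adjusted p-values in that fit, from limma, were 0.00351 for Hoxa4, 0.00521 for Hoxb3 and 0.0425 for Hoxb6. The same fit called 6 Hox probes over both lines (all probes, 47.8%), 11 in Dll1-3 (42.5%) and 4 in Dll1-5 (34.7%). With the replicate number, which is the dye orientation, as a block, it called 18 over both lines (63.4%), 18 in Dll1-3 (58.8%), 6 in Dll1-5 (52.3%) and 10 for the difference (37.3%). With the line as a random block 2 passed over both lines (28%). In each of these counts the share of Hox probes called lay below that of all probes. Hox probes were also dimmer, with 22.4% on the array above the negative controls in all 8 channels beside 45.1% of all probes. Ratios of dim probes are compressed here, so the lower shares do not show that Hox genes changed less.

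**Figure D4:**
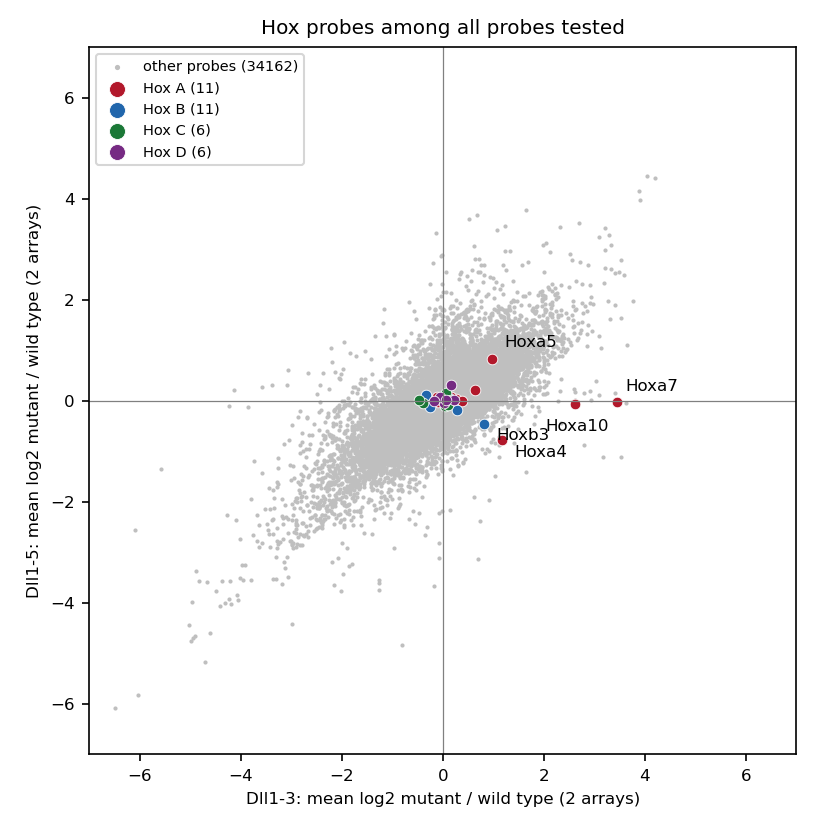
Mean log2 ratio in Dll1-3 (x axis) against Dll1-5 (y axis), each over 2 arrays, for 34 Hox probes coloured by cluster and for the other probes with values on all arrays in grey. Hoxa7 and Hoxa10 lie far to the right at a Dll1-5 value near 0, and Hoxa4 and Hoxb3 lie below 0 in Dll1-5 and above 0 in Dll1-3. Both axes share wild-type RNA as the other channel, so the slope of the grey cloud is not read here.

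Levels of the single channels set the mutant lines directly against each other. Loess and Aquantile scaled each level with both channels of its array, so this comparison is not independent of the ratios. Mutant RNA was at least 2-fold higher in Dll1-3 than in Dll1-5 in both dyes for 4 Hox probes, where 1.63% of all probes were and 3.88% differed in either direction, and these were the same 4 genes. The difference was 5.77 and 5.71 for Hoxa7, 3.14 and 3.12 for Hoxa10, 2.46 and 1.99 for Hoxa4, and 1.40 and 1.21 for Hoxb3, in Cy5 and Cy3. Those for Hoxa7 and Hoxa10 were taken from levels that in Dll1-5 were background.

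Wild-type levels on the Dll1-3 arrays were also set against those on the Dll1-5 arrays. Over 34197 probes the SD of that difference was 0.199 in Cy3 and 0.144 in Cy5, beside 0.505 and 0.466 for mutant RNA. Hoxa7 was the one Hox probe whose wild-type level differed by at least 2-fold in both dyes, and it was 1 of 3 such probes among all tested (0.00877%), with Mical1 and Fbln2. Its wild-type level was 2.02 higher in Cy3 and 2.50 higher in Cy5 on the Dll1-3 arrays, a mean of 2.26, which ran from 2.01 without background correction to 3.18 with a smaller offset. For Mical1, wild-type levels were 8.06 and 6.94 on the Dll1-3 and Dll1-5 arrays and mutant levels 11.46 and 7.09. For Fbln2 they were 7.60 and 8.74, with mutant levels of 8.29 and 12.41. In each of these 3 probes the wild-type channel was thus higher beside the mutant RNA in which the gene was high. Of 8 probes with mutant RNA at least 8-fold higher in Dll1-3 and wild-type levels of at most 7 on the Dll1-5 arrays, 6 had wild-type levels higher on the Dll1-3 arrays in both dyes. Their median wild-type difference was 0.71 (0.17 to 2.26), where the median over all probes was 0.00. Hoxa7 is itself among the 8, with the highest value. The limit set on Dll1-5 wild-type levels enters this difference and favours positive values. The comparison with all probes is therefore no test. The part of the mutant channel's signal in the Hoxa7 wild-type level was not tested. The ratio of Hoxa7 in Dll1-3 is set against that raised wild-type level.

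**Figure D5:**
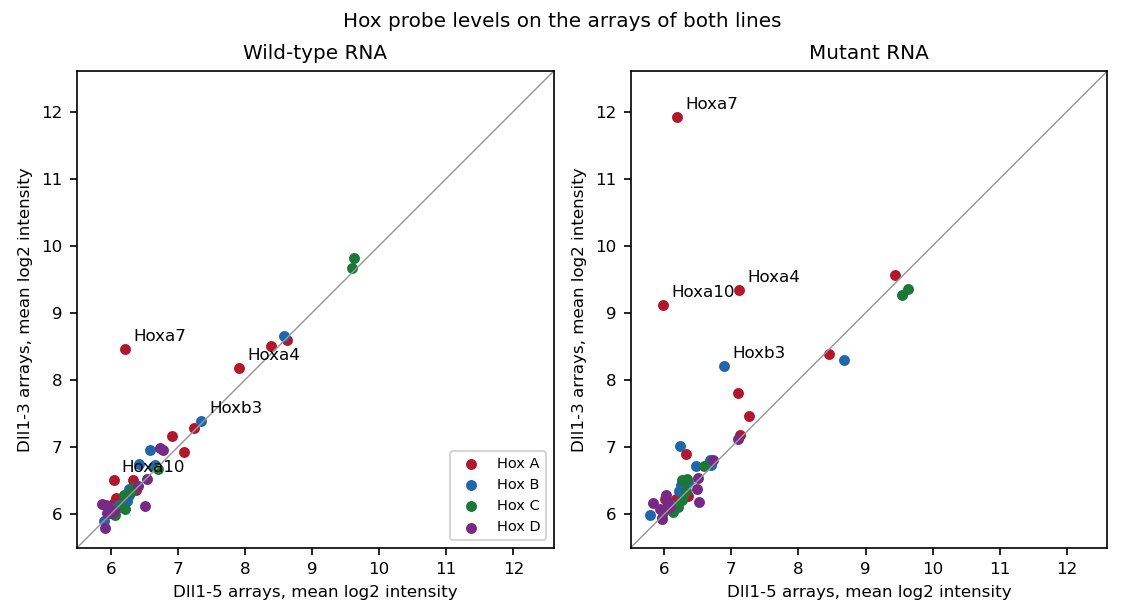
Mean level of 48 Hox probes on the Dll1-3 arrays (y axis) against the Dll1-5 arrays (x axis), for wild-type RNA (left) and mutant RNA (right), in normalised log2 intensity, with the line of equality. Hoxa7 is off the line in both panels, at 8.46 against 6.21 in wild-type RNA and 11.92 against 6.19 in mutant RNA, and Hoxa10, Hoxa4 and Hoxb3 are off it in mutant RNA.

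Regulators and partners of Hox proteins were read from lists of other genes, each gene by its brightest probe, and values are line means where a pair is given for Dll1-3 and Dll1-5. For this and the later lists, 3.98% of all probes were 2-fold higher and 5.2% lower in Dll1-3, and 2.56% and 3.03% in Dll1-5. With so few members per list, a count of 1 or 2 can lie near these shares. Of 9 TALE cofactors, the PBX and MEIS factors that bind DNA with Hox proteins, 2 were at least 2-fold lower on both Dll1-3 arrays and none in Dll1-5, with medians of -0.29 and -0.25. Meis2 was at -1.10, -1.29, -0.56 and -0.68, and Meis3 at -0.75, -0.47, -0.51 and -0.56. Among 30 Polycomb genes, which keep Hox clusters silent, 2 were 2-fold higher and 2 lower in Dll1-3, and 0 higher and 1 lower in Dll1-5, with medians of -0.01 and -0.03. Jarid2, a cofactor of the Polycomb methyltransferase, was at means of -1.86 and -0.86 in Dll1-3 and Dll1-5, Phc3 at -1.27 and -1.31, and Phf1 at 1.39 and 0.94. Of 18 trithorax, demethylase and insulator genes, 1 was 2-fold lower in each line, Kat6b at means of -1.17 and -0.11 and Mllt1 at -0.60 and -1.13. The other probes of both genes lay between -0.21 and 0.04.

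Retinoic acid genes, whose product opens anterior Hox genes, had 1 higher and 2 lower of 14 measured in Dll1-3 and none past 2-fold in Dll1-5. Aldh1a1, which makes retinoic acid, was at 2.17 and 1.84 in Dll1-3 and 0.36 and 0.18 in Dll1-5. Dhrs3, a retinal reductase, was at means of -1.28 and -0.90, and the receptor Rxra at -1.07 and -0.75, with its other probe at 0.16. Of 11 caudal and hindbrain inducers 7 were measured, and Cdx1, Cdx2, Cdx4 and Wnt3a were not among them. In each line 1 of the 7 was 2-fold lower and none higher, with medians of -0.06 and 0.03. Of 14 forebrain and midbrain markers measured, 0 were 2-fold in Dll1-3 and 2 were lower in Dll1-5, Nr2f1 at means of -0.73 and -1.33 and Dmrta2 at -0.47 and -1.40, and Lhx2 was at 0.68 and 0.74. None of 13 Hox-neighbour and ParaHox genes was 2-fold in a line. Among them, Hibadh was at -0.95 and -0.31, Calcoco1 at -0.87 and -0.13 and Gbx2 at -0.61 and -0.53. Gbx2 was well above background in no mutant channel, so the size of its ratio cannot be read, and its other probe was at -0.18.

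Markers of other cells were read beside the Hox values. None of 8 fibroblast, 5 microglia and blood, 4 endothelial and 6 neural crest markers measured was 2-fold on both arrays of a line, and Twist1, Itgam, Hbb-b1 and Pecam1 were not measured. Summed fibroblast signal, in linear normalised intensity, was 927 to 1040 in Dll1-3 mutant RNA, 964 to 982 in Dll1-5 and 889 to 992 in wild type. Summed signal of neural crest markers was 1200 to 1310, 1290 to 1330 and 1180 to 1310. The summed endothelial signal was 377 to 401, 355 to 362 and 413 to 488, and that of microglia and blood 412 to 443, 434 and 426 to 458. Some members of these 2 lists and of the fibroblast list lay below the 99th percentile of negative controls, 6.60 to 6.92, in every channel. Their levels were 6.00 to 6.34 for Ptprc, 5.86 to 6.37 for Cdh5 and 5.90 to 6.44 for Pdgfrb. Others were brighter, such as Col1a2 at 7.77 to 8.01 and the crest marker Tfap2a at 8.39 to 8.67. Dim probes add background to a sum, so similar sums do not show that such cells were absent or equally frequent. Neural markers were also counted, beside 5.2% of all probes 2-fold lower in Dll1-3 and 3.03% in Dll1-5. Neural stem cell markers were 2-fold lower for 3 of 9 in Dll1-3 and 5 of 9 in Dll1-5, neuronal for 2 of 6 in each line, astrocyte for 2 of 6 and 0 of 6, and oligodendrocyte lineage for 3 of 7 and 2 of 7, with 1 of 7 higher in each. Other probes of some of these genes were near 0, with means over both lines of -0.02 for Sox2, -0.01 for Dcx, 0.07 for Pdgfra and -0.19 to 0.16 for Slc1a2. Summed signals of the neuronal list were 2950 to 3400 in Dll1-3, 5710 to 5960 in Dll1-5 and 14300 to 15100 in wild type. Those of astrocytes were 3070 to 3120, 6740 to 7300 and 10200 to 10700. Those of the oligodendrocyte lineage were 16400 to 17600, 31200 to 34000 and 33400 to 35800. Such sums follow the brightest probes. Map2 had mutant levels of 10.96 and 11.20 in Dll1-3 and 12.21 and 12.27 in Dll1-5, where Tubb3 had 9.17, 9.29, 9.24 and 9.28. S100b, an astrocyte marker, had 10.79, 10.79, 12.28 and 12.18, and Aqp4 had 6.91, 7.01, 7.11 and 7.25. The part of these cell types in the Hox values was not tested.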

How the data were processed

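RNA of mutant and wild-type neurospheres was hybridised to 4 Agilent arrays of 43790 spots, 2256 of them controls. The deposited scanner files give spot intensity in each dye, per the file headers. Submitters' processing notes name Agilent Feature Extraction 8.1.1.1. A log10 ratio (Cy5 against Cy3) that the scanner software corrected itself stands beside it, per the file headers. The series' deposited value table is also log10, and against the scanner ratios (r from -0.962 to -0.954, slope near -1) it runs as wild type over mutant. How it was centred is not stated, and its column medians lay within 0.03 of 0. Both were alternatives only. No build is named for the probe coordinates.

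Mean signals were corrected with normexp (offset 50, which compresses ratios of dim probes) on the median local background, and normalised with loess within each array (span 0.3) in R 4.3.3 with limma 3.58.1 and the package data.table, version 1.17.8. Control spots and outlier spots were left out. Each probe's spots were averaged, and all ratios were given as log2 of mutant against wild type. Channel levels were log2 intensities after loess and Aquantile. The 2 arrays of a line were averaged first, and the line means were tested against 0 with lmFit and eBayes, on 1 residual and 1.73 prior degrees of freedom, Benjamini-Hochberg adjusted over all probes at 0.05. Single lines and the difference between them were counted by size, 2-fold on both arrays. The labels do not say whether both arrays of a line had the same pools. P-values measure only the spread between these samples, whose number limits the precision. Each ratio is against wild-type RNA, which leaves out the spread between wild-type cultures.

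Genes named were Hoxa7, every Hox gene with a probe at least 2-fold the same way on both arrays of a line, further genes of the largest mean up to 10, and up to 3 members of each related list with the same sign on all 4 arrays. Hoxa2, Hoxa6, Hoxa9, Hoxa13, Hoxb4, Hoxb6, Hoxb7 and Hoxc13 were named after their values were seen. A few genes chosen by this rule are left out of the text and figures. The Hox members, the related lists and the tests were chosen with earlier results of these data known. Upstream windows came from RefSeq. The code was tested on simulated data. Alternatives covered background correction, normalisation, filters, thresholds, probe averaging, each array left out, and arrays as samples with and without a block.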

Additional observations from a re-analysis of the deposited data

Results flagged for a closer look

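These results stood out because the lines went opposite ways on every array, or because the difference between lines passed in limma with the 4 arrays as samples. Differences are log2 ratios, Dll1-5 minus Dll1-3. For Hoxa7 the difference was -3.48 and for Hoxa10 -2.67, both with Dll1-5 mutant RNA not well above background, so that their sign in Dll1-5 cannot be read. The first Hoxa4 probe differed by -1.97 and Hoxb3 by -1.28, with all 8 channels above background. The second Hoxa4 probe was above the negative controls in 1 channel, too dim to read the sign in Dll1-5.

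Smaller differences of opposite sign were -0.47 for Hoxb4, 0.45 for the brighter Hoxb6 probe, 0.18 for the second Hoxa3 probe and -0.18 for Hoxc13. Hoxb4 and Hoxc13 were above the negative controls only on Dll1-3 replicate 1, so their signs in Dll1-5 rest on signal near background. In the fit with arrays as samples, limma's adjusted p for the difference was 0.11 for Hoxb4, 0.0425 for Hoxb6, 0.344 for Hoxa3 and 0.385 for Hoxc13, so 3 of these 4 did not pass. With the replicate number as a block it was 0.00523 for Hoxb4, which then passed, 0.00646 for Hoxb6, 0.08 for Hoxa3 and 0.161 for Hoxc13.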

How the results depend on the processing

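Counts of Hox probes stayed within 1.5 times of the main count in 75 trials of other settings and moved further in 19. Some of the 75 could not move, such as the Dll1-3 count with a Dll1-5 array left out. For the other thresholds, filters, ratios and left-out arrays below, shares of all probes were not counted. The counts there, Hoxa5 included, therefore do not set Hox probes apart from other probes. Over both lines, the count past an adjusted p of 0.05 in limma, 0 in the main setting, was 1 at an adjusted p of 0.1 (Hoxa5) and between 0 and 1 with each array left out, again Hoxa5 without Dll1-3 replicate 1 or without Dll1-5 replicate 2. Probes 2-fold on all 4 arrays, 0 in the main setting, became 1 at 1.5-fold (Hoxa5). For Dll1-3 the main count of 2 became 6 at 1.5-fold (Hoxa4, Hoxa5 and Hoxb3 among those added), 0 among probes above background in all 8 channels, and between 2 and 5 with each array left out, 5 being the count without Dll1-3 replicate 2. The Dll1-5 count of 0 became 2 at 1.5-fold (Hoxa4 and Hoxa5) and 1 with the scanner software's ratio or the deposited value table (Hoxa4). Probes that differed between the lines were 4 in the main setting and 2 among those above background in all 8 channels. Signs of the line means held in 7 of 7 other scalings for all named probes but the second Hoxa4 probe in Dll1-5 (4 of 7), Hoxb7 in Dll1-5 (5 of 7), Hoxa13 in Dll1-5 (5 of 7) and the dimmer Hoxb6 probe in Dll1-3 (6 of 7), each near 0. The 7 scalings are not independent. Aquantile leaves ratios unchanged, so its signs had to hold. The scanner software's ratio and the deposited value table nearly coincide, at 4.36 and 4.37 for Hoxa10 in Dll1-3. Signal over background limits 25 Hox probes, which were above the negative controls in no channel.

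Counting the 4 arrays as separate samples gave, without a block, 6 Hox probes over both lines, 11 in Dll1-3 and 4 in Dll1-5. With the replicate number, here the dye orientation, as a replicate block the counts were 18 over both lines, 18 in Dll1-3, 6 in Dll1-5 and 10 for the difference between lines. With the line as a random block 2 passed over both lines, beside 28% of all probes. Same-numbered arrays deviated together over probes (r = 0.68), but with only 2 numbers, which name the dye orientation, this is no pairing of cultures. The Hoxa7 wild-type difference under other scalings was chosen for trial after seeing the data.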
